A study of Mus musculus with 18 samples.

Results

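The genes described here encode 7 small proteins that skin and immune cells release or use as alarm signals: S100a8 and S100a9, the subunits of calprotectin, the secreted protein Wfdc21, and the calcium-sensor proteins S100a4, S100a6, S100a10 and S100a11. They were taken by gene symbol from the 32285 genes of the count tables. They were chosen by their expanded-minus-control differences in an earlier reading of these counts, so those differences are given as a description, with no test. Back skin of mice was profiled by droplet single-cell RNA-seq of all live (DAPI-negative) skin cells. All animals were operated on: the back skin was cut close to the tail and tunnelled up to the neck. Expanded mice then had an expander hydrogel placed under the neck skin, and control mice had the operation without an expander. The presence of the implant and the stretch it applies cannot be told apart with this control. The labels give no strain, sex or age. Skin was taken on day 1 (2 sequencing rounds), day 2 (2 rounds) and day 4 (1 round). Within a round, mice of the same arm shared 1 tube, so 5 control and 5 expanded mRNA libraries form 5 pairs, and 8 further samples list the hashtag antibodies that separate the mice in all rounds except day 1 round 1. A library is the replicate below, and values listed for 5 libraries always follow the order day 1 round 1, day 1 round 2, day 2 round 1, day 2 round 2, day 4.

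S100 proteins are small calcium-binding proteins with paired EF-hand loops, and most work as dimers. S100a8 and S100a9 form the heterodimer calprotectin, which fills the cytosol of neutrophils, is made by monocytes and by stressed keratinocytes, holds zinc and manganese away from microbes, and signals through TLR4 and the receptor RAGE once outside the cell. Wfdc21 belongs to the whey acidic protein family of small secreted proteins. S100a4 binds non-muscle myosin and is linked to cell movement, S100a6 binds calcium-dependent partners such as annexins, S100a10 forms a complex with annexin A2 and does not itself bind calcium, and S100a11 binds annexin A1.

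In the mouse genome (GRCm38, GENCODE vM21 annotation) the 6 S100 genes lie on chromosome 3: S100a4 at chr3:90603771-90606045 (plus strand), S100a6 at chr3:90612882-90624181 (plus strand), S100a8 at chr3:90668978-90670035 (plus strand), S100a9 at chr3:90692632-90695721 (minus strand), S100a11 at chr3:93520488-93526287 (plus strand) and S100a10 at chr3:93555080-93564643 (plus strand). Wfdc21 lies at chr11:83746940-83752642 (plus strand). S100a8 and S100a9 are neighbours read from opposite strands. S100a4 overlaps the gene model Gm42674, so the assignment of its reads is less certain than for the other members.

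The sequences just before 3 of the gene starts are shown because S100a8 and S100a9 were found in the same cells at different ratios and because S100a11 lies in the same chromosome region but follows another pattern. They are from the RefSeq promoter table (GRCm38.p6), end at the base before the annotated gene start, and read 5′ to 3′ on the gene's strand: S100a8, chr3:90668821-90668977, plus strand (157 bases); S100a9, chr3:90695722-90695971, minus strand (250 bases); S100a11, chr3:93520246-93520487, plus strand (242 bases). Capitals mark matches, on either strand, to TGANTCA (the AP-1 motif) or TTGCNNAA (a C/EBP motif). No match overlaps another.
S100a8: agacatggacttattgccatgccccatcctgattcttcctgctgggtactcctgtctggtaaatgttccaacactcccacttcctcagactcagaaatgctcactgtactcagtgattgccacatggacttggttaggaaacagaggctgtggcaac
S100a9: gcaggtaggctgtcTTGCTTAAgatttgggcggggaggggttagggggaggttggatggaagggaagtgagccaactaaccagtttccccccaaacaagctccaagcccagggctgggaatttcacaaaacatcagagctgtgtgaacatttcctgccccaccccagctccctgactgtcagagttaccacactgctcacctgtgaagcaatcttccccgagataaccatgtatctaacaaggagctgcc
S100a11: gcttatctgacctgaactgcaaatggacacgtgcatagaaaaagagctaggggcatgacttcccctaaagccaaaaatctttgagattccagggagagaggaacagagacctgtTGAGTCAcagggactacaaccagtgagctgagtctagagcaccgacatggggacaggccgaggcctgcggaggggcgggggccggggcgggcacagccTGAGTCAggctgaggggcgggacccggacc
The S100a8 window holds neither motif, the S100a9 window holds 1 C/EBP match, and the S100a11 window holds 2 AP-1 matches. Among 32851 promoter windows, 9.56% of those cut to 250 bases hold the C/EBP letters and 6.64% of those cut to 242 bases hold the AP-1 letters. The letters TATAAA were also searched and are in the window of S100a4, 31 bases before its end, as in 7.59% of 250-base windows; the S100a6 window holds none of the 3 motifs. Wfdc21 and S100a10 are named only.

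After filters, 45533 cells remained, 28564 from control and 16969 from expanded skin, in 40 clusters of which 32 could be named from marker genes as 18 classes. The libraries held between 17726739 and 75470722 gene UMIs (unique molecular identifiers, 1 per counted RNA molecule). Pairs of libraries shared between 1 and 23 cell barcodes, at most 0.377% of the smaller library. Levels are CPM, UMIs scaled to a common total, taken over the UMIs of a class in a library, and a mean over libraries uses those with at least 20 cells of the class. Class names stand for cells like the named type: they were rebuilt here from markers that include none of the 7 genes, and the 7 genes were left out of the clustering. The 5 fibroblast genes used to watch free RNA were lower in expanded skin in 30 of 70 tests over 14 classes and higher in 0 (median log2 difference -2.39), and 5 keratinocyte genes were higher in 3 and lower in 1 of 40. Their part in the members' values was not tested.

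Calprotectin was concentrated in neutrophil-like cells, and these cells were a larger share of 4 expanded libraries than of any control library. The neutrophil-like cluster, led by Retnlg, Stfa2l1 and Cxcr2 beside the members themselves, held 108 control and 1199 expanded cells. It made up 0.124, 0.363, 0.420, 0.779 and 0.267% of the cells in the control libraries and 0.650, 3.68, 15.005, 9.95 and 9.12% in the expanded libraries, so 1 expanded library, day 1 round 1, lay within the control range. These cells carried between 73.8% and 93.9% of all S100a8 UMIs of a library and between 81.5% and 99.7% of its S100a9 UMIs. Over whole libraries, S100a8 was 11.6, 24.4, 20.6, 48.4 and 8.91 CPM in control and 134, 455, 1569, 2112 and 951 CPM in expanded skin, and the groups did not overlap. In these whole-library values, more neutrophils and more RNA per neutrophil cannot be told apart.

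Within neutrophil-like cells the level itself was also high in both arms. S100a8 was 38040.4 (7 cells), 17290.2, 23333 (9 cells), 23942 and 13667 (19 cells) CPM in the control libraries and 60477 (19 cells), 35192, 33957, 47641 and 29623 CPM in the expanded libraries. With libraries of at least 20 cells alone this gave 20616 ± 4703 CPM (SD, n = 2) in control and 36603 ± 7736 CPM (SD, n = 4) in expanded libraries. All 4 expanded libraries with enough cells lay above both control ones, but the control library of day 1 round 1, with 7 cells, lay inside the expanded range. S100a9 was 59645 ± 2062 CPM (SD, n = 2) in control and 74153 ± 12401 CPM (SD, n = 4) in expanded libraries, and all expanded libraries of at least 20 cells exceeded the higher control one except day 4. The secreted protein Wfdc21 was 316 (7 cells), 889, 287 (9 cells), 507 and 253 (19 cells) CPM in control and 3174 (19 cells), 1468, 1263, 1939 and 1007 CPM in expanded neutrophils, with every expanded library above every control library, those with few cells included. Separated by hashtag, 9 expanded mice ranged from 16531 to 52296 CPM of S100a8 (median 34540), against 19238 in the 1 control mouse with enough neutrophils. For Wfdc21 these mice held 455 to 2330 CPM, against 300 CPM in that control mouse. Under a second rule, by the leading hashtag of each cell, a further control mouse held 1231 CPM, inside the range of the expanded mice. Of the other members, S100a11 (2907 ± 448 CPM [SD, n = 2] in control and 3879 ± 688 CPM [SD, n = 4] in expanded libraries) and S100a6 (3794 ± 1298 CPM [SD, n = 2] in control and 3693 ± 398 CPM [SD, n = 4] in expanded libraries) were abundant in neutrophils, while S100a4 (73.2 ± 27.6 CPM [SD, n = 4] in expanded libraries) and S100a10 (43.1 ± 20.9 CPM [SD, n = 4]) were at or near the bottom of all classes.

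**Figure D1:**
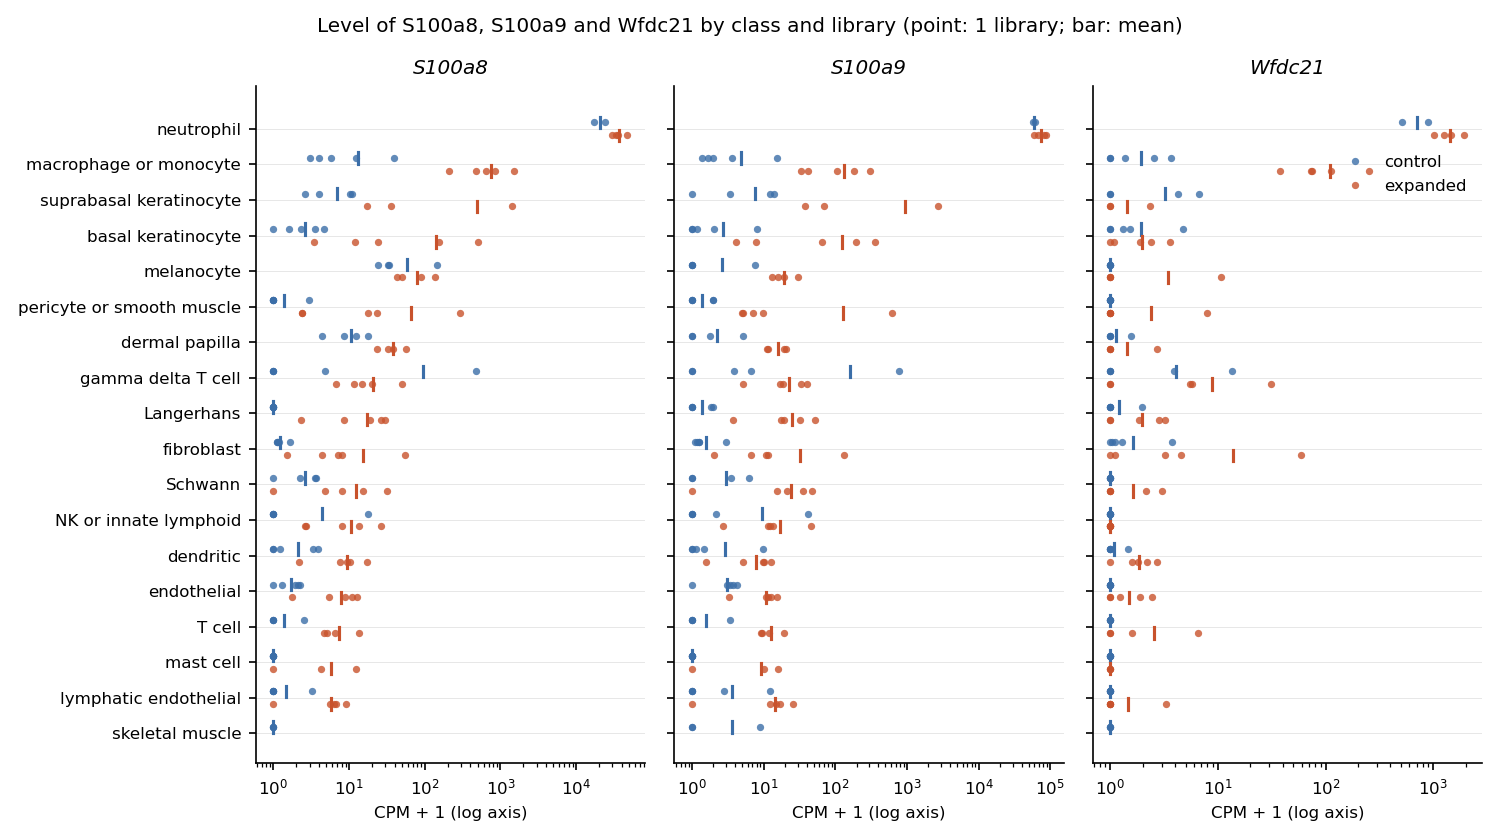
Level of S100a8, S100a9 and Wfdc21 (CPM + 1, log axis) in each cell class, with control and expanded libraries in 2 colours, 1 point for each library of at least 20 cells and a bar at the mean. Neutrophil-like cells stand above all other classes for all 3 genes, and in macrophage-like cells the expanded libraries, between 210.3 and 1519.9 CPM of S100a8, sit above all control libraries.

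Ordered by mean level in control skin, S100a8 was followed after neutrophils by γδ T cells, melanocytes, macrophages, dermal papilla cells and suprabasal keratinocytes, and it was at 0 in Langerhans, mast and skeletal muscle cells. Only the step from neutrophils to the next class was free of overlap between neighbours in the upper part of that order. S100a9 and Wfdc21 had the same top pair of classes, neutrophils and γδ T cells. For S100a8 and S100a9 the γδ T position came from 1 library described with the single-cell values, and for Wfdc21 it rested on 6 UMIs.

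Among the remaining classes, macrophage- or monocyte-like cells had the highest mean S100a8 level in expanded skin. In the whole class S100a8 was 4.75, 38.6, 2.04, 11.2 and 3.05 CPM in control and 479, 841, 644, 1519.9 and 210.3 CPM in expanded libraries. S100a9, its partner subunit, was 0.380, 14.3, 0.679, 0.974 and 2.58 CPM in control and 32.4, 105, 183, 302 and 41.3 CPM in expanded libraries. Neither gene overlapped between arms, with log2 differences of 5.91 (SE 0.72) and 4.80 (SE 0.90). The makeup of the class moved with the arm as well. Cluster 3, led by the monocyte genes Chil3, Ly6c2, Msr1 and Plac8, made up 4.11, 3.92, 3.23, 41.6 and 6.87% of the class in control and 39.9, 75.8, 94.7, 91.8 and 86.0% in expanded libraries, so the control library of day 2 round 2 stood apart from the other 4 controls. Cluster 9, led by the resident macrophage genes Cd209f, Folr2 and C1q, went from between 22.0 and 82.6% to between 0.271 and 41.2%.

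Within cluster 3 alone, S100a8 was 91.7, 643, 0 (9 cells), 17.0 and 14.99 CPM in control and 1010.3, 991, 651, 1579 and 229 CPM in expanded libraries. The groups overlapped there: the control library of day 1 round 2, with 24 cells, lay above 1 expanded library, and 1 of its cells held 70 of the 150 control UMIs of the cluster. The means were 192 ± 303 CPM (SD, n = 4) in control and 892 ± 498 CPM (SD, n = 5) in expanded libraries, a log2 difference of 3.04 (SE 0.82), and expanded exceeded control in 4 of 4 pairs. The share of cells with at least 1 S100a8 UMI was 11.4% of 361 control cells and 54.7% of 2162 expanded cells, at median depths of 7529 and 12178 UMIs. Thinned to 2000 UMIs per cell, the shares were 4.27% (10 cells too shallow) and 29.1% (36 too shallow). In endothelial cells, which should lack the gene, the shares were 0.445% and 5.02% unthinned and 0% and 1.36% thinned (median depths 5182 and 9579 UMIs). The share in cluster 3 was therefore well above the endothelial one in both arms. The other 2 macrophage clusters were low: cluster 17 held 3.16 ± 1.89 CPM (SD, n = 5) in control and 39.6 ± 18.6 CPM (SD, n = 4) in expanded libraries, without overlap, and cluster 9 held 3.18 CPM in control and 8.36 CPM in expanded libraries (n = 2 expanded).

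Separated by hashtag, single expanded mice ranged widely in cluster 3. S100a8 was between 76.8 and 2855 CPM over 11 expanded mice (median 497) and between 14.3 and 19.7 CPM over 3 control mice, all of day 2. Every expanded mouse exceeded every control mouse measured. No control mouse of day 1 or day 4 was measured, so the control library of day 1 round 2, which overlapped the expanded ones, is not covered. By day, S100a8 in expanded mice was 986 CPM in the 1 mouse of day 1, 1172 ± 926 CPM (SD, n = 7) on day 2 and 185 ± 127 CPM (SD, n = 3) on day 4. The mice of day 2 alone spanned 323 to 2855 CPM, so the days overlapped.

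The calprotectin signal of cluster 3 was set beside genes that mark neutrophils. A list of 10 neutrophil genes, of which 9 were in the tables, was counted in the same cells. In expanded cluster 3 these summed to 2027 UMIs, but 1921 of them were Mmp8, a collagenase gene, at 72.2 CPM against 174 CPM in neutrophils. The defining neutrophil genes were near 0: Retnlg, a resistin-like secreted protein, had 21 UMIs (0.790 CPM against 3786 CPM in neutrophils), the chemokine receptor Cxcr2 had 25 and Ly6g had 4. If every Retnlg UMI there had come with neutrophil RNA in its own proportions, that RNA would have carried 0.907% of the S100a8 UMIs of cluster 3, 8.41% of its S100a9 UMIs and 0.207% of its Wfdc21 UMIs. Computed over the whole list, with Mmp8, the figures were 42.8%, 378% and 10.5%. The calculation thus depends on Mmp8.

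Few cells carried most of the S100a8 UMIs of cluster 3. The 335 expanded cells of cluster 3 with at least 10 S100a8 UMIs, 15.5% of the cluster, held 17866 of its 20271 S100a8 UMIs (88.1%), and they came from all 5 libraries. Their median depth was 14593 UMIs, against 12178 over expanded cluster 3. They held 6 Retnlg UMIs, where neutrophils with that much S100a8 would have held 1612. Over the whole list they held 840 UMIs against 3953 at the ratio, in 216 of the cells, and 119 had none.

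The balance between the 2 calprotectin subunits differed between cell types. S100a8 made up 33.3% (libraries with at least 20 UMIs 28.8 to 36.8%) of the S100a8 and S100a9 UMIs in expanded neutrophils and 26.8% (libraries with at least 20 UMIs 22.1 to 32.8%) in control ones. In expanded cluster 3 it made up 81.9% (libraries with at least 20 UMIs 77.9 to 94.1%), so no library of either cell group reached the other's range. The pooled binomial intervals, which cover counting error only, were 33.2 to 33.5% and 81.4 to 82.4% (exact, 95%). Dermal papilla cells (72.1% [libraries with at least 20 UMIs 65.4 to 75.4%]) and melanocytes (84.2% [libraries with at least 20 UMIs 82.6 to 90%]) were also on the S100a8 side in expanded skin. Expanded basal keratinocytes were intermediate at 52.9% (libraries with at least 20 UMIs 26.4 to 61.9%), and suprabasal keratinocytes, at 35.1% (libraries with at least 20 UMIs 30.8 to 43.7%), were near the neutrophil value. The share sets classes side by side and does not give the molar ratio of the subunits.

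**Figure D2:**
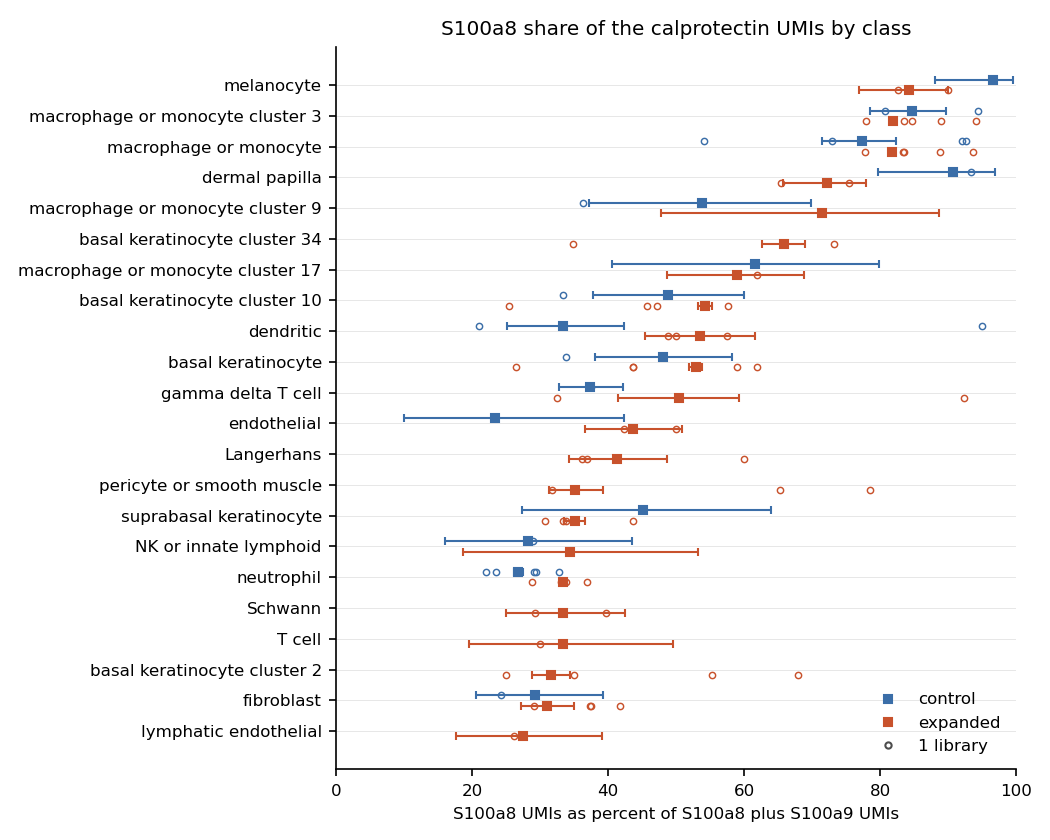
S100a8 as a percentage of all S100a8 and S100a9 UMIs by cell class and arm. Squares are pooled values with 95% binomial intervals and circles are single libraries; neutrophil-like cells sit near 33.3% and macrophage- or monocyte-like cluster 3 near 81.9% in expanded skin.

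Basal keratinocyte-like cells held calprotectin in expanded skin in some libraries and not in others. S100a8 was 2.59, 3.69, 0, 0.626 and 1.30 CPM in control and 2.43, 23.4, 152, 11.1 and 510.0 CPM in expanded libraries. S100a9 was 0, 7.23, 0, 1.04 and 0.186 CPM in control and 3.13, 65.5, 196, 6.83 and 356 CPM in expanded libraries. The expanded libraries of day 2 round 1 and day 4 were far above the rest, and day 1 round 1 stayed in the control range. The log2 differences were 4.94 (SE 1.22) and 5.22 (SE 1.32), with S100a8 higher in 4 of 5 pairs and S100a9 in 5 of 5. By hashtag, S100a8 was 0 to 14.3 CPM over 8 control mice and 1.21 to 1338 CPM over 11 expanded mice (median 59.4). Only 34.4% of basal cells could be given to a mouse, against 98.0% of immune cells.

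Most of this came from cluster 10, led by the epidermal genes Ly6d, Defb1, Defb6 and Fgfbp1, where S100a8 was 7.41, 8.15, 0, 0.806 and 2.68 CPM in control and 4.53, 21.7, 229, 8.87 and 896 CPM in expanded libraries. Cluster 2, led by the hair follicle genes Krt24, Krt15 and Lhx2, held 0.445 ± 0.343 CPM (SD, n = 5) in control and 26.0 ± 29.3 CPM (SD, n = 5) in expanded libraries. The signal rested on few cells: 60 expanded basal cells with at least 10 UMIs, 2.16% of the class, held 5452 of 5736 S100a8 UMIs (95.05%) and came from 3 libraries. These cells were deep, with a median of 35250 UMIs against 12817.5 over the expanded class, and the part of depth was not tested. They held 1 Retnlg UMI against 834 at the neutrophil ratio, 137 UMIs of the whole list against 2036, and 45 of them had no UMI of the list. A single cell of day 4 held 986 UMIs. Leaving it out changed the pooled level from 131 to 109 CPM. The share of basal cells with a S100a8 UMI was 1.04% in control and 7.64% in expanded skin, and 0.324% and 2.38% when thinned, little above the thinned endothelial values.

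Suprabasal keratinocyte-like cells, the differentiating layers above the basal one, followed the same pattern with fewer cells. S100a8 was 9.16, 1.61, 0 (5 cells), 9.78 and 2.95 CPM in control and 16.2, 34.3, 28.3 (15 cells), 692 (11 cells) and 1406 CPM in expanded libraries. In 8 expanded cells lay 1271 of the 1333 UMIs, 881 of them in 1 cell, and without that cell the pooled level was 112 in place of 326 CPM. Those 8 cells held 0 Retnlg UMIs against 186 at the neutrophil ratio. Their median depth was 30282.5 UMIs, against 18619 over the expanded class. S100a9 was 36.5, 68.5, 18.9 (15 cells), 893 (11 cells) and 2754 CPM in the expanded libraries, with 1678 of 2470 UMIs in 1 cell. The value of this class therefore rests on single cells.

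**Figure D3:**
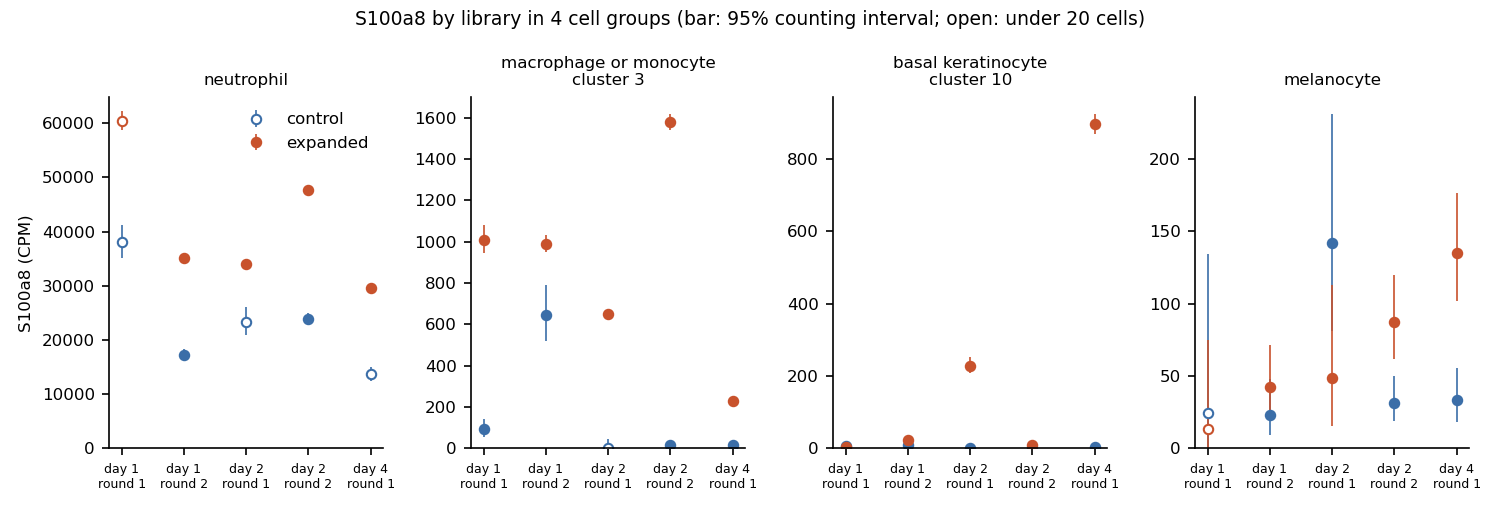
S100a8 (CPM) by library in neutrophil-like cells, macrophage- or monocyte-like cluster 3, basal keratinocyte-like cluster 10 and melanocyte-like cells, in the order of days and rounds. Points are libraries, bars their 95% counting intervals, and open points have under 20 cells; cluster 10 is high in 2 expanded libraries only, while cluster 3 is above its paired control in each of the 4 pairs with enough cells.

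Melanocyte-like cells carried S100a8 in both arms. The level was 24.1 (7 cells), 23.3, 142, 31.4 and 33.1 CPM in control and 13.4 (13 cells), 42.5, 48.3, 87.0 and 135 CPM in expanded libraries, and the groups overlapped. S100a9 was close to absent in control melanocytes (1.66 ± 3.33 CPM [SD, n = 4], against 18.6 ± 7.35 CPM [SD, n = 4] in expanded libraries, without overlap). Control melanocytes held 2 UMIs of the neutrophil list and expanded ones 6, with 0 of Retnlg in both. In control skin 9.51% of melanocytes had a S100a8 UMI (6.38% thinned) and none had 10 or more. Dermal papilla-like cells, the mesenchymal cells at the hair follicle base, also held it in both arms, with 15.2 (17 cells), 16.6, 7.55, 11.2 and 3.42 CPM in control and 4.30 (19 cells), 31.9, 22.3, 37.4 and 56.0 CPM in expanded libraries. Among libraries of at least 20 cells the arms did not overlap (log2 difference 2.05, SE 0.42).

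In classes that do not usually make calprotectin the values were low in both arms. Endothelial cells held 0.707 ± 0.533 CPM (SD, n = 5) in control and 6.92 ± 4.39 CPM (SD, n = 5) in expanded libraries, and T cells 0.389 and 6.39 CPM. Langerhans-like cells, the dendritic cells of the epidermis, had 0 S100a8 UMIs in 405 control cells, which allows up to 0.907% of cells with a UMI (exact binomial, 95%). Their expanded libraries held 1.35, 25.2, 18.1, 7.44 and 28.7 CPM. Of the 79 UMIs of these libraries, 1 cell of day 1 round 2 held 20, and without it the pooled level went from 17.9 to 13.4 CPM. With that cell kept, and against a floor of 3 UMIs over the control arm, the expanded level was at least 25.9-fold higher. These cells also held 648 UMIs of Stfa2 and 307 of Stfa2l1, both on the neutrophil list, but 3 of Retnlg.

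A few library values rested on 1 cell. In γδ T-like cells S100a8 was 472, 3.79, 0, 0 and 0 CPM in control libraries, and 1 cell of day 1 round 1 held 152 UMIs with 3 of the neutrophil list. Without it the pooled control level went from 81.2 to 1.07 CPM for S100a8 and from 136 to 2.67 CPM for S100a9. The arm difference of S100a9 in γδ T cells also changed sign, from -2.11 to 2.74 on the log2 scale, when cells with a UMI of the neutrophil list were left out. In pericyte- or smooth muscle-like cells the expanded S100a8 values were 1.40, 287, 16.6, 1.36 and 22.3 CPM, and without 1 cell of 160 UMIs the pooled level went from 51.9 to 11.0 CPM. In fibroblasts they were 0.510, 3.44, 6.20, 7.13 and 53.0 CPM, and without 1 cell of 114 UMIs the pooled level went from 8.49 to 2.96 CPM. None of these values describes a class as a whole.

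Counted over the 14 classes with enough libraries, S100a8 passed the filter on low counts in 10 and was higher in expanded skin in 9 of them, without overlap of libraries in 3. S100a9 gave the same numbers, 9 of 10 with 3 free of overlap, and Wfdc21 passed in 3 and was higher in 3, with 1 free of overlap. For comparison, 8.92% of all gene tests over the 14 classes passed the arm test at an adjusted p of 0.05, and in 5.33% every expanded library was above every control library. As the genes were chosen for this difference, and the filter keeps a gene where an arm is high, nothing is read from these counts. γδ T cells were the exception for S100a8 and S100a9, through the 1 library named above. Leaving out cells with a UMI of the neutrophil list changed the S100a8 log2 difference from 5.91 to 5.13 in macrophages, from 6.63 to 4.06 in pericytes and from 4.62 to 3.61 in fibroblasts, and left it at 4.94 in basal keratinocytes. Neutrophil RNA scaled by the list was also subtracted from each library of a class. S100a8 UMIs then remained in basal keratinocytes of 2 expanded libraries, day 2 round 1 (401 of 517) and day 4 (4591 of 4787), and of 0 control libraries. They remained in macrophages of 5 expanded libraries and 1 control library, and in pericytes of 4 expanded and 0 control libraries, so no fold is given.

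Wfdc21 outside neutrophils was seen mainly in cluster 3 of the macrophage- or monocyte-like class in expanded skin. In cluster 3 it was 9.65, 28.0, 0 (9 cells), 5.50 and 0 CPM in control and 156, 86.5, 113, 262 and 40.1 CPM in expanded libraries, without overlap. The means were 10.8 ± 12.1 CPM (SD, n = 4) in control and 132 ± 84.2 CPM (SD, n = 5) in expanded libraries, a log2 difference of 4.34 (SE 0.59). Cells with a Wfdc21 UMI made up 2.22% of control and 28.2% of expanded cells, or 0.570% and 12.2% when thinned. The 92 expanded cells with at least 10 Wfdc21 UMIs held 1799 of 3247 UMIs and 0 Retnlg UMIs, where the neutrophil ratio gives 3811. Over the whole list they held 395 UMIs against 9765 at the ratio, in 71 of the 92 cells. Neutrophils accounted for 53.4 to 76.0% of the Wfdc21 UMIs of the expanded libraries, a smaller part than of S100a8 or S100a9.

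In fibroblasts Wfdc21 was a matter of single cells on day 4. It was 0, 0.0404, 0.116, 0.276 and 2.76 CPM in control and 0.102, 0, 2.26, 3.56 and 57.7 CPM in expanded libraries, highest on day 4 in both arms. In control skin 4 cells held 72 UMIs and in expanded skin 3 cells held 135, all on day 4, with 0 Retnlg UMIs in either. In basal keratinocytes it was 0.911 CPM in control and 0.978 CPM in expanded libraries on average, from 7 and 50 UMIs, with 15 of the 50 in 1 cell. The fitted log2 difference was 1.59, so this class counts among those higher in expanded skin although the means were alike.

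S100a4, in contrast to the calprotectin genes, was expressed throughout the skin, and its level in expanded skin was highest in dendritic-like cells, fibroblasts and macrophages. In control skin the order began with NK or innate lymphoid-like cells (4337 ± 1045 CPM [SD, n = 5]), γδ T cells (3457 ± 427 CPM [SD, n = 5]) and dendritic cells (3344 ± 669 CPM [SD, n = 5]). It ended with suprabasal keratinocytes (50.6 ± 36.1 CPM [SD, n = 4]), and all neighbours in that order overlapped. The largest log2 differences between arms were in mesenchymal cells. In dermal papilla cells S100a4 was 979.6 (17 cells), 800.1, 1268, 2218 and 757 CPM in control and 4497 (19 cells), 2643, 3621, 4178 and 2748 CPM in expanded libraries, 2.77-fold higher (log2 1.47, SE 0.21). In pericytes it was 649, 559, 357, 1148 and 395 CPM in control and 1493, 1189.9, 1543, 1774 and 3166 CPM in expanded libraries (log2 1.40, SE 0.32). In fibroblasts it was 1519, 2093, 1462, 2643 and 1584 CPM in control and 2925, 3486, 6271, 4246 and 4217 CPM in expanded libraries (log2 1.01, SE 0.20). In all 3 classes the lowest expanded library was above the highest control library.

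S100a4 was also separate between arms in dendritic cells (3344 ± 669 CPM [SD, n = 5] in control and 4961 ± 639 CPM [SD, n = 5] in expanded libraries), Schwann-like cells (log2 0.66, SE 0.17) and melanocytes (log2 0.96, SE 0.23). In macrophages the class value (log2 0.97, SE 0.27) moved with the makeup of the class: within cluster 3 it was 3144 ± 613 CPM (SD, n = 4) in control and 3841 ± 714 CPM (SD, n = 5) in expanded libraries, a log2 difference of 0.25 (SE 0.18). NK and γδ T cells went the other way. In NK cells S100a4 was 5973, 4551, 4005, 3139 and 4016 CPM in control and 4081, 3851, 2415, 2754 and 3139 CPM in expanded libraries, lower in 5 of 5 pairs although the groups overlapped (log2 -0.51, SE 0.11). Over the 14 classes the difference was above 0 in 12, with 6 free of overlap. Of all gene tests, 8.92% were called and 5.33% had all expanded libraries above all control ones. The sign of the S100a4 difference was not stable in T cells, where 0.04 became -0.22 with finer clusters. Nor was it stable in basal keratinocytes, where 0.29 became -0.25 with doublets kept.

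S100a6 was the most evenly expressed member, with class means in control skin between 819 CPM (suprabasal keratinocytes) and 5353 CPM (NK cells) and overlap between all neighbours. The classes whose libraries separated by arm were mainly lining and pigment cells. In melanocytes it was 2046 (7 cells), 879, 1226, 1031 and 720.2 CPM in control and 1918 (13 cells), 1590.2, 3176, 2689 and 2532 CPM in expanded libraries (log2 1.34, SE 0.16, from libraries of at least 20 cells). In lymphatic endothelial-like cells it was 3063, 3014, 1919, 2746 and 1827 CPM in control and 4858, 4628, 7265, 5549 and 4681 CPM in expanded libraries (log2 1.03, SE 0.18). Every expanded library of lymphatic endothelium exceeded every control library. In basal keratinocytes it was 3638, 2626, 1537, 3808 and 2089.9 CPM in control and 5213, 4696, 4179, 6196 and 3947 CPM in expanded libraries (log2 0.82, SE 0.21). Blood endothelial cells had a log2 difference of 0.87 (SE 0.21).

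As with S100a4, the S100a6 difference was negative in NK and γδ T cells. In NK cells it was 5353 ± 1257 CPM (SD, n = 5) in control and 3695 ± 694 CPM (SD, n = 5) in expanded libraries, lower in 5 of 5 pairs (log2 -0.63, SE 0.15), and in γδ T cells the log2 difference was -0.43 (SE 0.13). In T cells it was -0.13 (SE 0.16). In cluster 3 it was 3908 ± 1100.1 CPM (SD, n = 4) in control and 6038 ± 1112 CPM (SD, n = 5) in expanded libraries (log2 0.57, SE 0.17), against a class-wide log2 difference of 1.12 (SE 0.22). The difference was above 0 in 11 of 14 classes, 4 of them free of overlap, beside 8.92% of all gene tests called and 5.33% with all expanded libraries above all control ones.

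S100a10 had a negative difference in more classes than S100a4, S100a6 or S100a11: it was below 0 in 12 of 14 classes, 2 of them without overlap, beside 8.92% of all gene tests called and 2.29% with all expanded libraries below all control ones. It was above 0 in macrophages and pericytes. In T cells, the class with the highest control level, it was 1970.1 (10 cells), 2669.7, 2728, 3149 and 3623 CPM in control and 1889.5 (17 cells), 1713, 1665, 2002 and 2359 CPM in expanded libraries (log2 -0.69, SE 0.14). In dermal papilla cells it was 1655 (17 cells), 1595, 1631, 1772 and 1748 CPM in control and 890.0 (19 cells), 856, 1180.2, 685 and 893 CPM in expanded libraries (log2 -0.89, SE 0.19). Both classes had every usable expanded library below every usable control library. Dermal papilla cells thus had more S100a4 and less S100a10 in expanded skin. NK cells (log2 -0.72, SE 0.11), Langerhans cells (log2 -0.66, SE 0.19) and basal cluster 10 (log2 -0.64, SE 0.14, without overlap) were also lower. The 2 classes with a positive value had log2 differences of 0.08 (SE 0.24) in macrophages and 0.19 (SE 0.18) in pericytes. The first became negative when 1 of 3 libraries was left out (-0.16 without expanded day 1 round 2), and the second became -0.07 with doublets kept. Small negative values in Schwann, lymphatic endothelial and melanocyte-like cells also changed sign without 1 library.

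In control skin S100a11 was highest in neutrophils, Langerhans cells (2591 ± 728 CPM [SD, n = 5] in control and 3351 ± 274 CPM [SD, n = 5] in expanded libraries) and suprabasal keratinocytes (1954 ± 343 CPM [SD, n = 4] in control and 1898 ± 186 CPM [SD, n = 3] in expanded libraries). The difference was above 0 in 9 of 14 classes and below 0 in 5, with 2 and 1 of them free of overlap. Of all gene tests, 8.92% were called, 5.33% had all expanded libraries above all control ones and 2.29% had them all below. In lymphatic endothelium S100a11 was 759, 1030.5, 554, 1084 and 861 CPM in control and 1498, 1908, 2035, 1842 and 1692 CPM in expanded libraries (log2 0.97, SE 0.19). In dendritic cells it was 1218, 1453, 1422, 1933 and 1862 CPM in control and 2023, 2329, 3099, 3428 and 2061 CPM in expanded libraries (log2 0.52, SE 0.15). Neither class overlapped between arms. In the macrophage class the log2 difference was 1.73 (SE 0.34), while in cluster 3 alone, with 758, 1209.9, 1650.5 (9 cells), 1151 and 1317 CPM in control and 1336, 2962, 1644, 1894 and 1578 CPM in expanded libraries, it was 0.75 (SE 0.27). Cluster 9 held 289 CPM in control and 290.4 CPM in expanded libraries. Dermal papilla cells were lower in expanded skin (log2 -0.55, SE 0.19, without overlap).

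**Figure D4:**
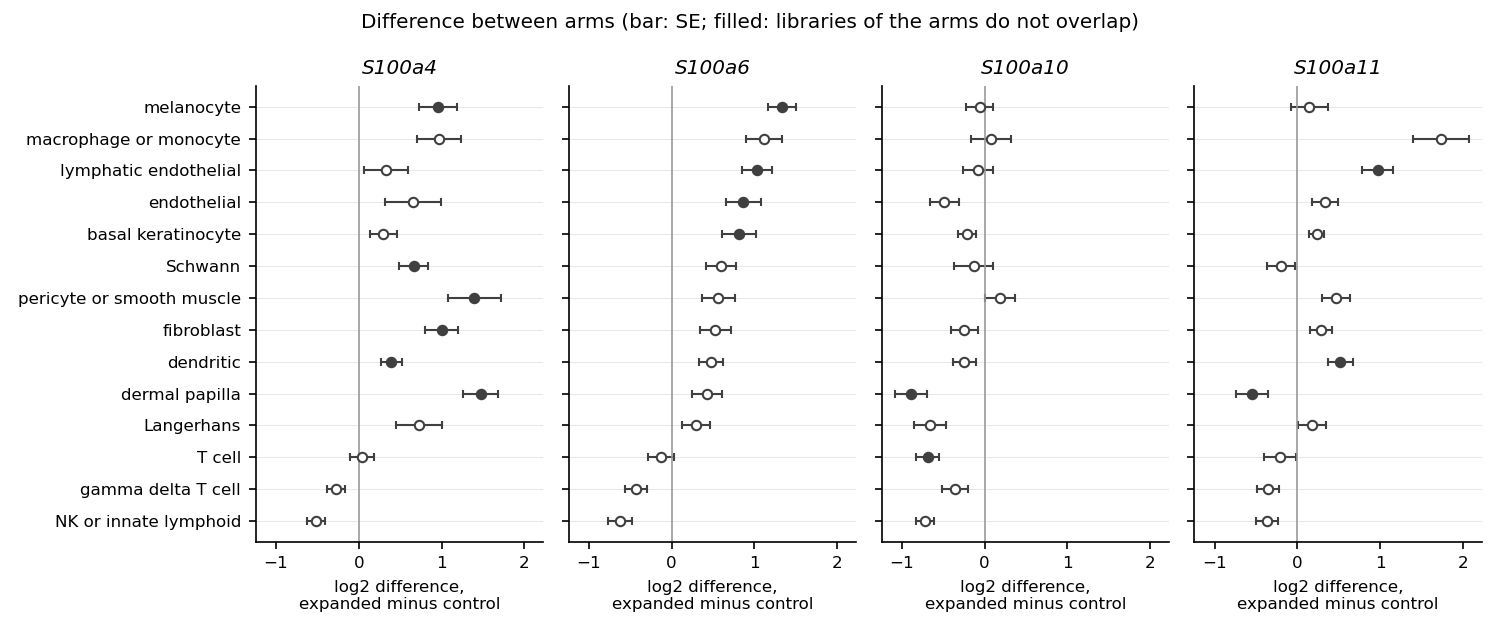
Log2 difference between expanded and control skin with its standard error for S100a4, S100a6, S100a10 and S100a11 in 14 cell classes; filled points mark classes whose libraries do not overlap between arms. S100a4 reaches 1.47 in dermal papilla cells while S100a10 is at -0.89 in the same cells.

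The median log2 difference over the classes fitted was 3.81 for S100a8 and 3.75 for S100a9 (10 classes each) and 3.83 for Wfdc21 (3 classes). Over all 14 classes it was 0.66 for S100a4, 0.55 for S100a6, -0.24 for S100a10 and 0.20 for S100a11. Over all genes tested the median lay between 0.003 and 0.038 in each class.

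Change with time within expanded skin was not used to choose the genes and could be tested. From day 1 to day 2, 0 of 84 member tests passed an adjusted p of 0.05 (edgeR quasi-likelihood test, Benjamini-Hochberg over all genes of a class), beside 0.212% of all gene tests. At an unadjusted p of 0.05, 15 passed, 11 upward and 4 downward, and DESeq2 called 5 after adjustment, in fibroblasts (S100a4, S100a6, S100a11 and Wfdc21) and pericytes (S100a11). The smallest adjusted p was that of Wfdc21 in fibroblasts, with a log2 change of 5.14 (SE 0.96, adjusted p = 0.0965). That change rests on few UMIs: 137 of the 151 in expanded fibroblasts were of day 4, and the libraries of days 1 and 2 held 0 to 3.56 CPM. S100a11 in pericytes changed by 0.94 (SE 0.23, adjusted p = 0.130), and S100a6 in fibroblasts by 1.10 (SE 0.26, adjusted p = 0.142). In pericytes S100a9 changed by -5.43 (SE 1.47, adjusted p = 0.149) and S100a8 by -3.79 (SE 1.41, adjusted p = 0.24997), and both passed without expanded day 1 round 1, at -6.42 (SE 0.40, adjusted p = 8.54e-05) and -4.79 (SE 0.64, adjusted p = 0.0474), where day 1 is left with the library whose pericyte level came mostly from 1 cell. For S100a8 the value was 2.77 (SE 0.94, adjusted p = 0.231) in basal keratinocytes, and this one passed, at 4.88 (SE 0.85, adjusted p = 0.0398), when cells with a UMI of the neutrophil list were left out. With 2 libraries for each day and arm, changes of this size in the secreted genes were not resolved by the main test.

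Whether the effect of expansion differed between day 1 and day 2 was tested in the same way, and 0 of 84 member tests passed (edgeR quasi-likelihood test, adjusted p), beside 0.0546% of all gene tests. At an unadjusted p of 0.05, 7 passed, all upward, and DESeq2 called 0 with 11 at that unadjusted level. The 7 were S100a8 and S100a9 in fibroblasts and in γδ T cells, S100a9 in macrophages, S100a10 in endothelial cells and S100a11 in pericytes. In γδ T cells 1 cell of control day 1 round 1 held 152 of 154 control S100a8 UMIs and 253 of 258 for S100a9. The contrast is made of arm differences, by which the genes were chosen, so nothing is read from the direction. Day 4 had 1 pair of libraries and entered no test of time.

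The wider pathway was read from 7 lists of genes that are no members, 73 genes of which 72 were in the tables. Lists of neutrophil genes and of genes used to watch free RNA were counted apart. Camp is on both a pathway list and the neutrophil-only list, so these counts are not fully separate. Each gene was tested between arms in each of the 14 classes (edgeR quasi-likelihood test, adjusted over all genes of the class), and 86 of 532 tests passed. The lists were chosen with earlier results of these data known, so their adjusted p-values between arms are given as a description. Differences are log2, expanded minus control, with the mean CPM of both arms where shown. Leaving out 1 library gave between 42 and 93 calls: 42 without control day 4, 43 without expanded day 4 and 57 without control day 1 round 1. With thinned cells 56 of 348 tests passed, and with no filter on low counts 164 of 879. The share of all genes called in a class, for reading these counts, was 23.8% in fibroblasts, 21.5% in macrophages, 15.7% in pericytes, 10.1% in endothelial cells, 9.67% in lymphatic endothelial cells, 7.45% in basal keratinocytes, 5.79% in dendritic cells, 4.2% in Langerhans cells, 3.63% in dermal papilla cells, 1.4% in melanocytes, 0.552% in NK cells, 0.342% in Schwann cells, 0.253% in γδ T cells and 0% in T cells.

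Other secreted alarm and antimicrobial genes changed in both directions: 12 higher and 10 lower of 56 tests passed (median log2 0.06). Lcn2, an iron-scavenging secreted protein released by neutrophils and stressed epithelia, rose in 7 classes. Its log2 differences were 6.45 (SE 0.80, adjusted p = 0.00114, mean 0.383 to 50.4 CPM) in pericytes, 5.02 (SE 0.54, adjusted p = 0.000289, mean 1.10 to 58.6 CPM) in fibroblasts and 4.58 (SE 0.56, adjusted p = 0.00174, mean 2.24 to 58.9 CPM) in macrophages. They were 3.91 (SE 0.52, adjusted p = 0.000583, mean 10.6 to 199 CPM) in dermal papilla cells, 2.98 (SE 0.84, adjusted p = 0.0430, mean 7.66 to 128 CPM) in endothelial cells, 1.75 (SE 0.35, adjusted p = 0.0174, mean 69.8 to 337 CPM) in basal keratinocytes and 1.28 (SE 0.24, adjusted p = 0.00475, mean 465 to 1389 CPM) in lymphatic endothelium. Stromal, vascular, epithelial and myeloid classes were thus all among the classes with a call for Lcn2. The part of free RNA and of neutrophil RNA in these Lcn2 values was not tested. Chil3, a chitinase-like protein, rose in macrophages by 3.41 (SE 0.94, adjusted p = 0.0284, mean 116 to 822 CPM), a class in which cluster 3, led by that gene, made up more of the cells. The alarm cytokine Il33 rose in fibroblasts by 1.94 (SE 0.46, adjusted p = 0.00971, mean 7.12 to 24.8 CPM) and the cathelicidin gene Camp in dermal papilla cells by 3.10 (SE 0.59, adjusted p = 0.00831, mean 4.47 to 47.7 CPM). Camp stands on the neutrophil-only list too: its value here is the median log2 difference (3.10) over the 7 tests of that list. The part of neutrophil RNA in this Camp value was not tested.

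The lysozyme genes fell. Lyz1 changed by -4.56 (SE 0.66, adjusted p = 0.00489, mean 1.58 to 0.0583 CPM) in basal keratinocytes, -3.85 (SE 0.89, adjusted p = 0.0141, mean 279.9 to 39.6 CPM) in macrophages, -3.33 (SE 0.56, adjusted p = 0.0175) in Langerhans cells and -3.18 (SE 0.54, adjusted p = 0.0145) in dendritic cells. Lyz2, its close relative, changed by -2.78 (SE 0.51, adjusted p = 0.0216, mean 1275 to 282 CPM) in Langerhans cells, -1.62 (SE 0.29, adjusted p = 0.0170, mean 6734 to 2648 CPM) in dendritic cells and -2.11 (SE 0.38, adjusted p = 0.0356) in Schwann cells. It also fell in melanocytes (-1.88 [SE 0.41, adjusted p = 0.0209]), basal keratinocytes (-1.67 [SE 0.41, adjusted p = 0.0337]) and lymphatic endothelium (-1.56 [SE 0.38, adjusted p = 0.0195]). Reads of this pair can be shared, so the values of each gene are uncertain. The calls include keratinocytes, Schwann cells and melanocytes beside the phagocytes known for lysozyme. In basal keratinocytes Lyz1 was near 0 in both arms. Dendritic-like cells, rich in Lyz2, numbered 2422 in control and 613 in expanded skin. The part of free RNA in these calls was not tested.

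Among receptors of S100 proteins and their partners, 6 higher and 8 lower of 86 tests passed. The scavenger receptor Cd36 fell in endothelial cells with a difference of -1.57 (SE 0.33, adjusted p = 0.0127, mean 976 to 373 CPM) and in Langerhans cells with a difference of -2.91 (SE 0.48, adjusted p = 0.0175, mean 70.8 to 11.6 CPM), and also in basal keratinocytes (-1.87 [SE 0.52, adjusted p = 0.0498]). The TLR4 co-receptor Cd14 fell in pericytes (-1.31 [SE 0.37, adjusted p = 0.0326]), and Cd69, listed as a receptor and known as an early activation antigen, rose in dendritic cells (1.94 [SE 0.31, adjusted p = 0.0129, mean 6.92 to 31.7 CPM]). Emb, another listed receptor, rose in 3 classes. Of the adaptors below TLR4, 1 higher and 7 lower of 74 tests passed, with Nfkb1 and Rela, subunits of NF-kappaB, lower in 3 classes each. The median of both lists was near 0 (log2 -0.03 and 0.01).

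Of transcription factors linked to calprotectin genes, 2 higher and 17 lower of 107 tests passed (median log2 -0.23). Cebpb fell in pericytes with a difference of -1.28 (SE 0.18, adjusted p = 0.00144, mean 2475 to 1059.8 CPM) and in endothelial cells with a difference of -0.93 (SE 0.22, adjusted p = 0.0209). Cebpd fell in pericytes with a difference of -1.09 (SE 0.17, adjusted p = 0.00196, mean 678 to 338 CPM) and in endothelial cells with a difference of -0.91 (SE 0.15, adjusted p = 0.00475, mean 362 to 209.8 CPM). Lower calls outside vascular walls were Cebpd in fibroblasts (-0.94 [SE 0.13]), macrophages (-0.93 [SE 0.17]) and lymphatic endothelium (-0.68 [SE 0.17]), and Cebpb in fibroblasts (-0.66 [SE 0.17]). Cebpe was higher in macrophages (1.15 [SE 0.35]). Hif1a, the oxygen-regulated factor, rose in lymphatic endothelium by 1.40 (SE 0.17, adjusted p = 0.000324, mean 108 to 314 CPM).

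Of binding partners of the S100 proteins, 3 higher and 12 lower of 112 tests passed (median log2 -0.17), and 7 of the 12 lower calls were Ahnak and 3 were Anxa1. Ahnak, a large scaffold protein that binds the S100a10 and annexin A2 complex, fell in 7 classes. Its log2 changes were -1.46 (SE 0.24, adjusted p = 0.0175, mean 1752 to 803 CPM) in Langerhans cells, -0.89 (SE 0.12, adjusted p = 0.00748, mean 2460.3 to 1507 CPM) in dendritic cells and -0.67 (SE 0.15, adjusted p = 0.0286) in melanocytes. Anxa1, the annexin partner of S100a11, fell in NK cells with a difference of -0.83 (SE 0.17, adjusted p = 0.0384, mean 568 to 339 CPM). Other S100 genes gave 1 higher and 1 lower of 66 tests, with S100b lower in dermal papilla cells (-3.07 [SE 0.70, adjusted p = 0.0211, mean 16.4 to 1.00 CPM]).

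Other genes of the whey acidic protein family, to which Wfdc21 belongs, gave 5 higher and 1 lower of 31 tests (median log2 0.62). Slpi, a secreted inhibitor of neutrophil elastase, rose in macrophages by 2.88 (SE 0.61, adjusted p = 0.0104, mean 83.0 to 653 CPM) and in fibroblasts by 1.76 (SE 0.54, adjusted p = 0.0346, mean 8.29 to 31.2 CPM). Wfdc17 rose in lymphatic endothelium (1.80 [SE 0.54, adjusted p = 0.0456]) and in dermal papilla cells (1.80 [SE 0.45, adjusted p = 0.0341]), while Wfdc1 fell in fibroblasts (-1.97 [SE 0.64, adjusted p = 0.0425]). Neutrophil-only genes passed the low-count filter in 7 tests, of which 4 were higher and 0 lower, and neutrophil genes shared with other myeloid cells gave 21 higher and 6 lower of 89 tests. The call of Camp in dermal papilla cells is among the 4 and also among the pathway calls. The part of neutrophil genes in the S100a8 values of the same classes was not tested beyond the Retnlg counts given for the cells rich in S100a8.

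Between day 1 and day 2 of expanded skin, 3 pathway genes passed beside 5 calls, all downward, among the genes used to watch free RNA: Wfdc18 rose in NK cells by 8.41 (SE 1.49, adjusted p = 0.0396), Lcn2 fell in endothelial cells with a difference of -6.23 (SE 0.77, adjusted p = 0.0191) and Lyz2 fell in γδ T cells with a difference of -5.63 (SE 0.98, adjusted p = 0.0381). Each rests on 2 libraries a day.

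The genes whose levels followed each member most closely were ranked by Pearson r of log2(CPM + 1) over 204 class-by-library values and 15929 genes. These points share libraries and classes, so r is a description without a p. S100a8 was closest to S100a9 (0.907), Wfdc21 (0.795) and Acod1 (0.745), and without the neutrophil-like values its r with S100a9 was 0.828. Wfdc21 was closest to Fpr1 (0.855), B430306N03Rik (0.847) and Trem3 (0.843). Without neutrophil-like values it was closest to Cd177 (0.669) and Mmp8 (0.663). The broadly expressed genes had other neighbours: S100a4 was closest to Lgals1 (0.867) and Emp3 (0.755), S100a10 to Ahnak (0.768) and Capn2 (0.740), and S100a11 to Uck2 (0.642) and Plbd1 (0.640). S100a6 had only loose neighbours, with S100a4 (0.539) and Calm3 (0.531) first.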

How the data were processed

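The 10 mRNA libraries, 5 control and 5 expanded, were analysed with 8 hashing samples. The authors deposited filtered UMI count matrices of genes and hashtags, made with Cell Ranger 6.1.2 on mm10, per the submitters' processing notes. Per the labels' protocols, libraries were Chromium 3′ v3.1, mice of 1 arm and round were pooled, and live cells were sorted. From these counts, barcodes needed at least 200 genes and 500 UMIs, with no more than 10% of UMIs mitochondrial. Doublets were removed with Scrublet (835 cells, 1.77%) and hashtags (1024 cells, Seurat 5.3.0 HTODemux, quantile 0.99), 1718 cells in all. Clustering (scanpy 1.11.5, leidenalg 0.10.2) used 2000 variable genes without the members, 30 components, 15 neighbours and resolution 1, and clusters were named from marker lists. UMIs were summed by class and library (at least 20 cells, at least 4 libraries an arm, 14 classes) and tested with edgeR 4.0.16 (R 4.3.3), quasi-likelihood test with arm and day as terms, or arm-by-day means for the contrasts of time, with Benjamini-Hochberg adjustment and a threshold of 0.05. The smallest count behind a bound was a floor of 3 UMIs, intervals were 95% and cover counting error only, and high cells had at least 10 UMIs. The members, lists and rules were chosen with earlier results of these data known. All 7 members are described. Of the lists, up to 4 genes with the largest log2 difference past the threshold in each class are named, and for each member the 3 most correlated genes with at least 10 CPM in a class-by-library value were ranked. Counts of how many classes a listed gene was called in are given for a few genes that stood out after their values were seen. Calls of Cebpb, Cebpd and Cebpe outside the 4 named in a class were added in the same way. A replicate is a pooled library, so p-values measure the spread between pools of mice. Libraries of 1 sequencing round share a number and a run per the labels, and deviations of the control and expanded library of a round from their day means correlated at r of 0.262 to 0.507 over 4 classes and 2 days (genes above 50 CPM). The round was therefore used as a block in an alternative fit. Other alternatives were DESeq2 1.42.0, its size factors, no filter on low counts, thinning to 2000 UMIs, resolution 2, clustering with the members, doublets kept, and each library left out. The procedures were tested on simulated counts. The titles of 1 mRNA and 1 hashing sample conflict with the content of their files, which was followed.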

Additional observations from a re-analysis of the deposited data

Results flagged for a closer look

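A library was looked at again where it stood apart from the others of its arm by Dixon's criterion. This was so in 24 of 149 groups of 4 or 5 libraries whose highest library had at least 20 UMIs of the gene (16.1%). The criterion marks about 1 in 20 groups of independent, normally distributed values. Many groups here hold values near 0, and groups share libraries, so the 2 shares cannot be compared. Values are CPM, with the range of the other libraries after each. S100a8 was 53.0 in fibroblasts of expanded day 4 (high, others 0.510 to 7.13), 472 in γδ T cells of control day 1 round 1 (high, others 0 to 3.79) and 38.6 in macrophages of control day 1 round 2 (high, others 2.04 to 11.2). It was also 287 in pericytes of expanded day 1 round 2 (high, others 1.36 to 22.3). S100a9 was 41.0 in NK cells of control day 2 round 2 (high, others 0 to 1.19), 7.23 in basal keratinocytes of control day 1 round 2 (high, others 0 to 1.04) and 8.87 in dendritic cells of control day 4 (high, others 0 to 0.465). It was also 2.02 in fibroblasts of control day 1 round 2 (high, others 0.116 to 0.276), 129.6 in fibroblasts of expanded day 4 (high, others 1.02 to 10.4) and 785 in γδ T cells of control day 1 round 1 (high, others 0 to 5.68). It was also 14.3 in macrophages of control day 1 round 2 (high, others 0.380 to 2.58) and 619 in pericytes of expanded day 1 round 2 (high, others 4.08 to 8.88). Wfdc21 was 2.76 in fibroblasts of control day 4 (high, others 0 to 0.276), 57.7 in fibroblasts of expanded day 4 (high, others 0 to 3.56) and 30.1 in γδ T cells of expanded day 1 round 1 (high, others 0 to 4.71). S100a4 was 3248 in macrophages of control day 2 round 2 (high, others 1096 to 1619). S100a6 was 3421 in T cells of expanded day 4 (high, others 2257 to 2416), 3209 in fibroblasts of control day 2 round 2 (high, others 1969.6 to 2093) and 2902 in γδ T cells of control day 1 round 2 (low, others 3925 to 4343). It was also 2626 in pericytes of expanded day 1 round 2 (low, others 4545 to 4857). S100a10 was 1648 in NK cells of expanded day 4 (high, others 919 to 1077). S100a11 was 990.0 in NK cells of expanded day 1 round 2 (high, others 711 to 774), 269 in dermal papilla cells of expanded day 1 round 2 (low, others 339.9 to 351) and 806 in γδ T cells of expanded day 1 round 2 (low, others 969 to 1011). For S100a8 and S100a9 the high libraries of γδ T cells and of expanded pericytes and fibroblasts are those in which 1 cell held most UMIs. For S100a9, 1 cell also held 32 of the 33 control UMIs of NK cells, 75 of 82 in dendritic cells and 35 of 53 in basal keratinocytes, and in control macrophages 1 cell held 21 of 55 (70 of 187 for S100a8). The day 4 values of Wfdc21 in fibroblasts came from 4 control and 3 expanded cells.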

How the results depend on the processing

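Over the pathway lists, 86 calls between arms became 164 with no filter on low counts (879 tests in place of 532) and 56 with thinned cells (348 tests). Leaving out 1 library gave 42 to 93, with 42 without control day 4, 43 without expanded day 4 and 57 without control day 1 round 1. For the change of the members from day 1 to day 2 in expanded skin, 0 calls became 5 with DESeq2's Wald test, 15 of 97 with no filter on low counts, 1 with thinned cells (S100a4 in NK cells) and 1 without cells holding a UMI of the neutrophil list, and 0 to 2 when 1 library was left out. For the difference between days in the effect of expansion, 0 calls became 8 with no filter on low counts and 0 to 1 when 1 library was left out. The cause of these moves was not tested. With the sequencing round as a replicate block, the pairing gave 113 pathway calls in place of 86. For the difference between days in the effect of expansion the same replicate block gave 0 of 84 calls, as without it, with 15 in place of 7 at an unadjusted p of 0.05. No paired analysis was possible for the change with time, because its libraries are of 1 arm. The part of the UMIs at the neutrophil ratio, over the whole list and then from Retnlg alone, was 42.8% and 0.907% (S100a8), 378% and 8.41% (S100a9), 10.5% and 0.207% (Wfdc21) in expanded cluster 3, and 18.8% and 1.01%, 50.5% and 2.67%, and 104% and 5.54% in basal cluster 10. Of the members' differences between arms, 1402 values under alternatives stayed within 1 SE of the value given and 97 moved further. In γδ T cells the S100a8 difference of -1.64 became 1.53 with DESeq2, 1.37 with doublets kept and 3.57 without control day 1 round 1. Leaving out the cell with most UMIs, fitting single clusters and the blocked difference between days were alternatives chosen after seeing the data. Control neutrophils, 7 to 44 a library, and classes near 20 cells limit the depth behind their values.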
